A study of Mus musculus with 16 samples.

Results

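The distal sciatic nerve of WldS mice at day 7 after a crush was compared with that of C57BL/6 mice at day 3. The comparison asks which programmes of the injured nerve match once the slower strain has been given more time, and which do not. It used 4 of the 16 arrays of the series, the 2 titled as WldS day 7 and the 2 titled as C57BL/6 day 3, and all 14545 genes with a signal above a dimness limit. The WldS mice were of the strain C57BL/6 OlaHsd-Wlds and carried the WldS mutation. The mice set against them were C57BL/6 mice labelled wild type. Both groups were 8 to 12 weeks old and had received a microcrush of the left sciatic nerve at mid-thigh. A 4 mm piece of nerve, from 1 to 5 mm beyond the crush, was cleaned of connective tissue, the pieces of a group were pooled, and RNA from the pool was run on an Affymetrix mouse whole-genome array. The series also holds uninjured nerve (day 0) of each strain, WldS day 3 and 14, and C57BL/6 day 7 and 14, again with 2 arrays each, and 56 mice per strain stand behind all of them. The number of mice in a pool is not stated in the labels, nor whether the pools of a group came from separate dissections, so that all p-values measure the spread between pools. The WldS mutation is carried by every cell of the mouse, and the substrain of the C57BL/6 mice is not given in the labels.

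When an axon is cut off from its cell body it breaks down by a programme called Wallerian degeneration. The Schwann cells around it stop making myelin, the lipid-rich sheath, and turn into repair cells that secrete growth factors. Macrophages enter and clear myelin debris, and Schwann cells, fibroblasts and macrophages divide. The WldS mutation is a fusion gene that joins the start of Ube4b to Nmnat1, an enzyme that makes NAD, and it keeps cut axons intact for longer.

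Levels below are log2 probe set signals, in which 1 unit is a doubling, and n is 2 pools a group. Differences are WldS day 7 minus C57BL/6 day 3, given with the standard error (SE) of the limma fit. A gene was called when its limma p-value, adjusted over all genes, lay under 0.05. Since a missed call does not show that levels match, a gene was counted as matching only if the 95% confidence interval of its difference lay inside a 2-fold change either way. The median SD between the pools of a group was 0.118 in WldS day 7 nerve and 0.106 in C57BL/6 day 3 nerve, and the median SE of the difference was 0.143. Genes with a group mean under the dimness limit (5.37) have a difference that is a lower bound. The index of RNA quality (log2 signal of 3' minus 5' control probe sets) was 2.02 and 2.00 on the WldS day 7 arrays, against 1.99 and 1.63 on the C57BL/6 day 3 arrays. It was 3.81 on WldS day 0 replicate 1, an array that enters the changes from day 0. Sox10, the transcription factor that marks Schwann cells, averaged 11.25 ± 0.15 in WldS day 7 nerve and 11.32 ± 0.26 in C57BL/6 day 3 nerve (SD), so the labelled tissue carried its marker in both groups. In pooled tissue, fewer cells of a type and less RNA per cell cannot be told apart.

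Many genes differed between the groups, and the later WldS time point did not lower their number. Without the shift, WldS day 3 nerve differed from C57BL/6 day 3 nerve in 1373 genes (9.44%, with 4.82% higher and 4.62% lower). The median size of that difference was 0.14 on the log2 scale. WldS day 7 nerve differed from C57BL/6 day 3 nerve in 2639 genes (18.1% of those tested), of which 1370 were higher (9.42%) and 1269 lower (8.72%) in WldS day 7. Of these, 354 were at least 2-fold higher and 199 at least 2-fold lower. The interval lay within 2-fold for 12862 genes (88.4%), among them 1262 that were called, and 306 genes were neither called nor within 2-fold. The same WldS day 7 arrays differed in 3727 genes from C57BL/6 day 0 (25.6%, with 14.7% higher and 10.9% lower), in 994 from day 7 (6.83%, of which 3.86% of all genes were higher and 2.97% lower) and in 1959 from day 14 (13.5%, with 8.2% higher and 5.27% lower). The median size of the difference was 0.21 against C57BL/6 day 0, 0.20 against day 3, 0.13 against day 7 and 0.16 against day 14 on the log2 scale. These 4 comparisons share the WldS day 7 arrays, and no test was made between them. By both measures the C57BL/6 nerve of the same day lay nearest, and by count it also did so without either WldS day 7 pool. Without WldS day 7 replicate 1 the count against C57BL/6 day 3 was 1405, and without C57BL/6 day 3 replicate 1 it was 1411.

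**Figure D1:**
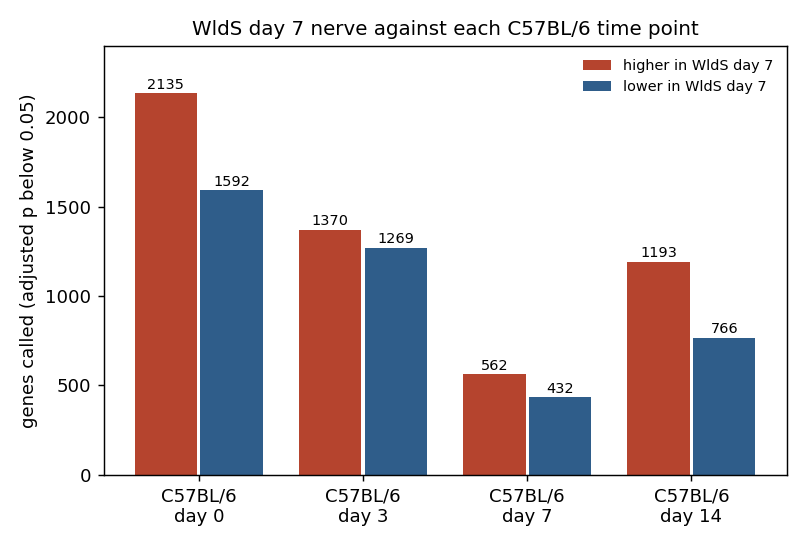
Genes called in WldS day 7 nerve against each C57BL/6 time point, by direction. Bars count genes with an adjusted p under 0.05 in the limma fit of 14545 genes. Against C57BL/6 day 3 there were 1370 higher and 1269 lower genes, and against C57BL/6 day 7 there were 562 and 432.

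The injury responses overlapped in large part. Set against the own uninjured nerve, 5122 genes were called in WldS day 7 (35.2%) and 5961 in C57BL/6 day 3 (41%), in comparisons that share no array. Those that passed in both strains with the same sign numbered 3169, of which 1994 were higher and 1175 lower than at day 0. They made up 61.9% of the WldS day 7 list and 53.2% of the C57BL/6 day 3 list, and 88 genes were called in opposite directions. Of the 3169, the interval between the groups lay within 2-fold for 2484 (78.4%). Among the 793 that were at least 2-fold from day 0 in both strains, it did so for 437 (55.1%), and 393 were called different. Across all genes the WldS day 7 change correlated with the C57BL/6 change at Pearson r = 0.72 for day 3, 0.79 for day 7 and 0.68 for day 14. These are descriptions over 14545 genes, which are not independent replicates, and the 3 values share the WldS arrays. For the day 3 changes of both strains r was 0.80. A further 1865 genes were called in WldS day 7 and not in C57BL/6 day 3, and 2704 in C57BL/6 day 3 and not in WldS day 7. The change itself was called different between strains for 329 of those 1865 genes and for 876 of those 2704.

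**Figure D2:**
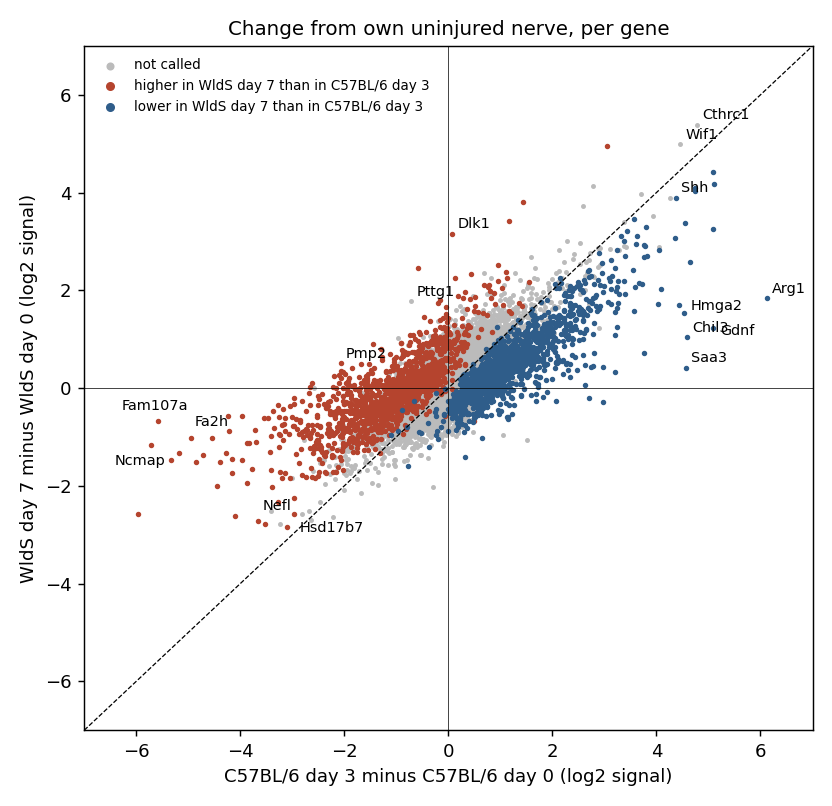
Change from the own uninjured nerve for each gene, in C57BL/6 day 3 (x axis) and WldS day 7 (y axis), in log2 signal. Red genes were called higher and blue genes lower in WldS day 7 than in C57BL/6 day 3. Myelin genes such as Ncmap and Fa2h lie far above the dashed line of equal change, Arg1 and Gdnf lie below it, and Cthrc1, Wif1 and Hsd17b7 lie near it. Hsd17b7 was nonetheless called higher in WldS day 7.

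The genes that rose most from day 0 in both strains and stayed within 2-fold of each other came from matrix, signalling and division. Cthrc1, a secreted regulator of collagen matrix, was at 12.51 and 12.72 in WldS day 7 nerve, against 12.50 and 12.53 in C57BL/6 day 3 nerve. It had risen by 5.39 in WldS and by 4.78 in C57BL/6 from uninjured means of 7.22 in WldS and 7.74 in C57BL/6. The difference between the groups was 0.10 ± 0.18 on the log2 scale, with an interval of -0.29 to 0.49. Wif1, a secreted Wnt inhibitor, was at 8.32 and 8.61 in WldS day 7, against 8.19 and 7.96 in C57BL/6 day 3, a difference of 0.39 ± 0.14. Its day 0 means, 3.47 in WldS and 3.63 in C57BL/6, were below the dimness limit. The others of the 10 with the largest shared rise were Shh, Cks2, Tnc, Pbk, Cenpf, Fbn2, Cd44 and Dbf4. Cd44, Cenpf and Dbf4 were also called, and lost the call without WldS day 7 replicate 1 or C57BL/6 day 3 replicate 2. The secreted signal Shh, which nerves make after injury, was at 12.60 and 12.65 in WldS day 7, against 13.17 and 13.30 in C57BL/6 day 3. Its arrays did not overlap, as was the case for 54.7% of all genes. It was called lower by 0.61 ± 0.16 (limma adjusted p = 0.0183), a call lost without WldS day 7 replicate 1 or either C57BL/6 day 3 pool. Tenascin C (Tnc), a matrix protein of healing nerve, was at 9.82 and 9.92 against 10.02 and 10.41, with an interval of -0.81 to 0.11. Among shared falls of the same kind, the 10 largest included 5 genes of sterol synthesis or its control (Hsd17b7, Insig1, Lss, Tm7sf2 and Fdft1). Nefl, the light neurofilament chain of axons, was at 5.36 and 5.42 in WldS day 7, against 5.19 and 4.88 in C57BL/6 day 3, with day 0 means of 7.96 in WldS and 7.85 in C57BL/6. Its C57BL/6 day 3 mean was under the dimness limit. Pon1, a paraoxonase, was at 7.00 and 7.48 against 7.41 and 6.98, and had fallen by 2.78 in WldS and by 3.23 in C57BL/6.

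**Figure D3:**
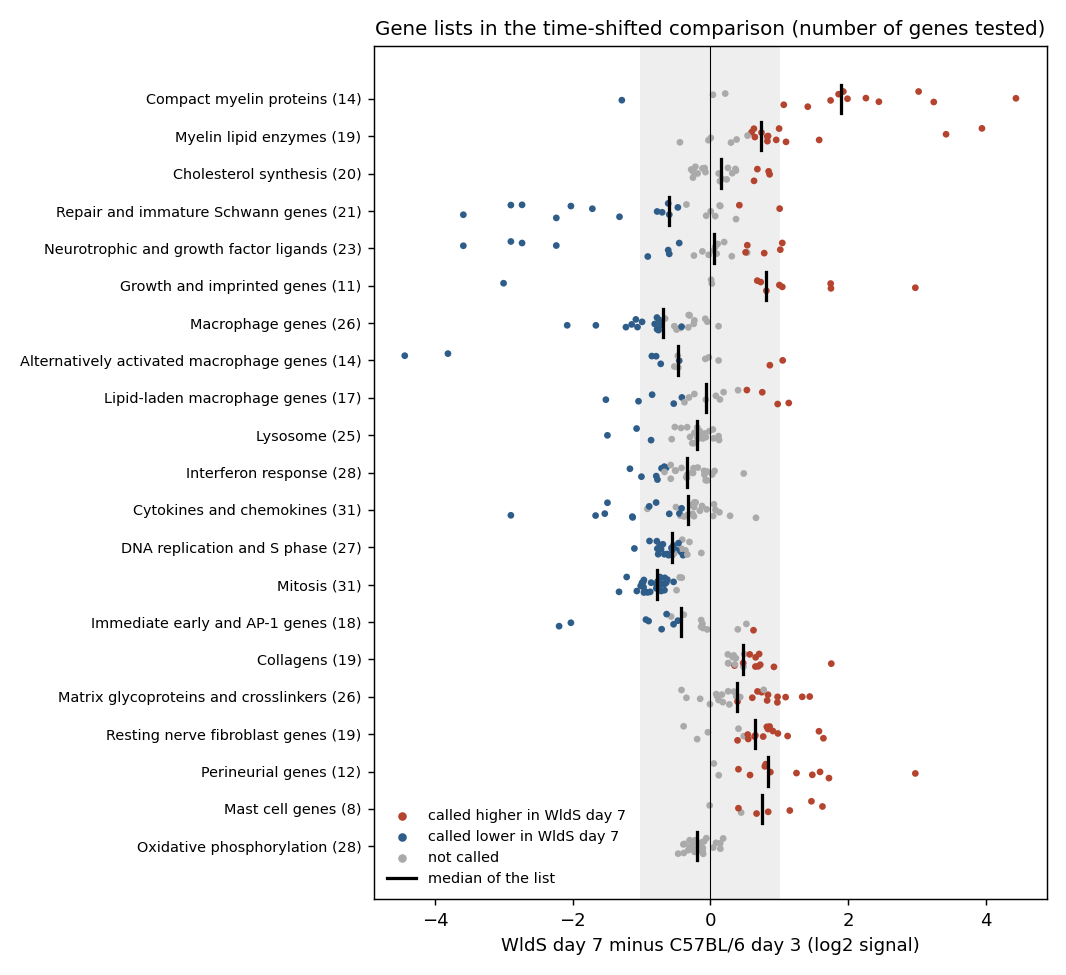
Difference of each member of 21 gene lists, WldS day 7 minus C57BL/6 day 3, in log2 signal. Each point is a gene, the black bar is the median of its list, and the grey band marks a 2-fold change either way. Myelin, fibroblast and perineurial genes lie to the right and mitotic and macrophage genes to the left, while cholesterol synthesis, lysosome and oxidative phosphorylation genes lie near 0.

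Myelin genes were much higher in WldS day 7 nerve and did not match. Of 14 compact myelin and myelin sheath genes tested, 11 were higher and 1 was lower, with a median difference of 1.90. Ncmap, a glycoprotein of the myelin sheath of peripheral nerve, was at 11.16 and 11.54 in WldS day 7, against 6.93 and 6.88 in C57BL/6 day 3. That is a 21.7-fold difference (log2 4.44 ± 0.20, limma adjusted p = 7.97e-09). Ncmap had been at 12.51 in uninjured WldS nerve and at 12.63 in uninjured C57BL/6 nerve, so that it had fallen by 1.16 in WldS by day 7 and by 5.72 in C57BL/6 by day 3. Dusp15, a phosphatase, differed by 3.24 ± 0.12 (0.89 on another probe set), Cmtm5 by 3.02 ± 0.21, and Mal, a raft protein of myelin, by 2.26 ± 0.17. Pmp2, a fatty acid carrier of peripheral myelin, was at 13.12 and 13.22 in WldS day 7, against 10.79 and 10.65 in C57BL/6 day 3. It stood 0.50 above its uninjured level in WldS and had fallen by 2.07 in C57BL/6, a difference between changes of 2.58 (adjusted p = 4.16e-06). Against C57BL/6 day 7, 11 of the 14 were again higher and 1 lower, with a median of 1.32. Between the strains at day 3, 11 were also higher and 1 lower in WldS, with a median of 1.58. The 1 gene lower in WldS day 7 than in C57BL/6 day 3 was Gjb1, the connexin 32 channel of Schwann cells. Its difference was -1.29 (limma adjusted p = 0.000395). The 2 that were not called, Mobp and Gjc3, had differences of 0.04 and 0.22. Gjb1 was named after its values were seen.

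Enzymes that make myelin lipids were mostly higher in WldS day 7, by graded amounts. Of 19 tested, 13 were higher and none was lower, with a median of 0.74, and 9 had an interval within 2-fold. Fa2h, which puts a hydroxyl group on the fatty acids of myelin galactolipids, was at 11.32 and 11.26 in WldS day 7, against 7.29 and 7.40 in C57BL/6 day 3. Its difference was 15.4-fold (log2 3.94 ± 0.11, adjusted p = 5.21e-11). Ugt8a, which makes galactosylceramide, was at 11.73 and 11.65 against 8.10 and 8.44, a difference of 3.42 ± 0.18. Gal3st1, which turns that lipid into sulfatide, differed by 1.58 ± 0.21. Gpam, the first step of glycerolipid synthesis, differed by 1.10 ± 0.10 (0.06 on a dimmer probe set) and the desaturase Scd1 by 1.00 ± 0.25 (0.22 on another probe set). The last call was lost without WldS day 7 replicate 1 or C57BL/6 day 3 replicate 1. Fatty acid synthesis lay closer, with differences of 0.54 for Fasn and 0.38 for Acaca, neither of them called. All arrays of WldS day 7 lay above those of C57BL/6 day 3 for Fa2h, Ugt8a and Gal3st1. With 2 pools a group, the groups lay apart in either direction for 54.7% of all genes. The medians from the own day 0 were -0.55 for this list in WldS day 7 and -1.47 in C57BL/6 day 3.

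Transcription factors of myelinating Schwann cells went in both directions, and most were not called. Egr2, the factor that drives myelin genes, was at 11.95 and 11.75 in WldS day 7, against 10.44 and 10.71 in C57BL/6 day 3, a difference of 1.27 ± 0.17 (adjusted p = 0.000137). Pou3f1, a factor of the stage before myelination, went the other way, at 9.33 and 9.57 against 10.34 and 9.93 (-0.68 ± 0.18, adjusted p = 0.0173, lost without replicate 1 of either group). S100b, a calcium-binding protein of Schwann cells, was 1.35 ± 0.15 higher. Of the 10 factors listed for myelinating Schwann cells, 3 were higher, Egr2, Tead1 and Nfatc4, and 1 was lower, Pou3f1. Tead1 and Nfatc4 lost their calls without WldS day 7 replicate 1 or either C57BL/6 day 3 pool. The following genes belong to no list for myelin and are given because they stood among the 15 with the largest rise. Fam107a, an actin-binding protein, had the largest difference of any gene that passed the naming rule, at 10.77 and 11.23 in WldS day 7, against 5.91 and 5.84 in C57BL/6 day 3 (5.13 ± 0.25, 34.9-fold). Smco3 differed by 3.81, Fam178b by 3.65, Ddn (dendrin) by 3.62 and Pcp4, a calmodulin regulator, by 3.39. Sorcs1, a sorting receptor, differed by 2.85, and Mme, the peptidase neprilysin, by 2.72. The growth factor Fgf4 differed by 2.65 and Otop1, a proton channel, by 2.97, each as a lower bound for its probe set since the C57BL/6 mean was dim. Other probe sets above the dimness limit gave smaller differences for some of these genes, 0.09 for Fgf4 (and 3.27 on a further one), 0.10 for Fam178b, 0.19 and 0.99 for Sorcs1 and 0.48 for Mme. Apart from Otop1, the changes of these genes in C57BL/6 from day 0 to day 3 lay between -5.97 for Ddn and -3.54 for Sorcs1.

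**Figure D4:**
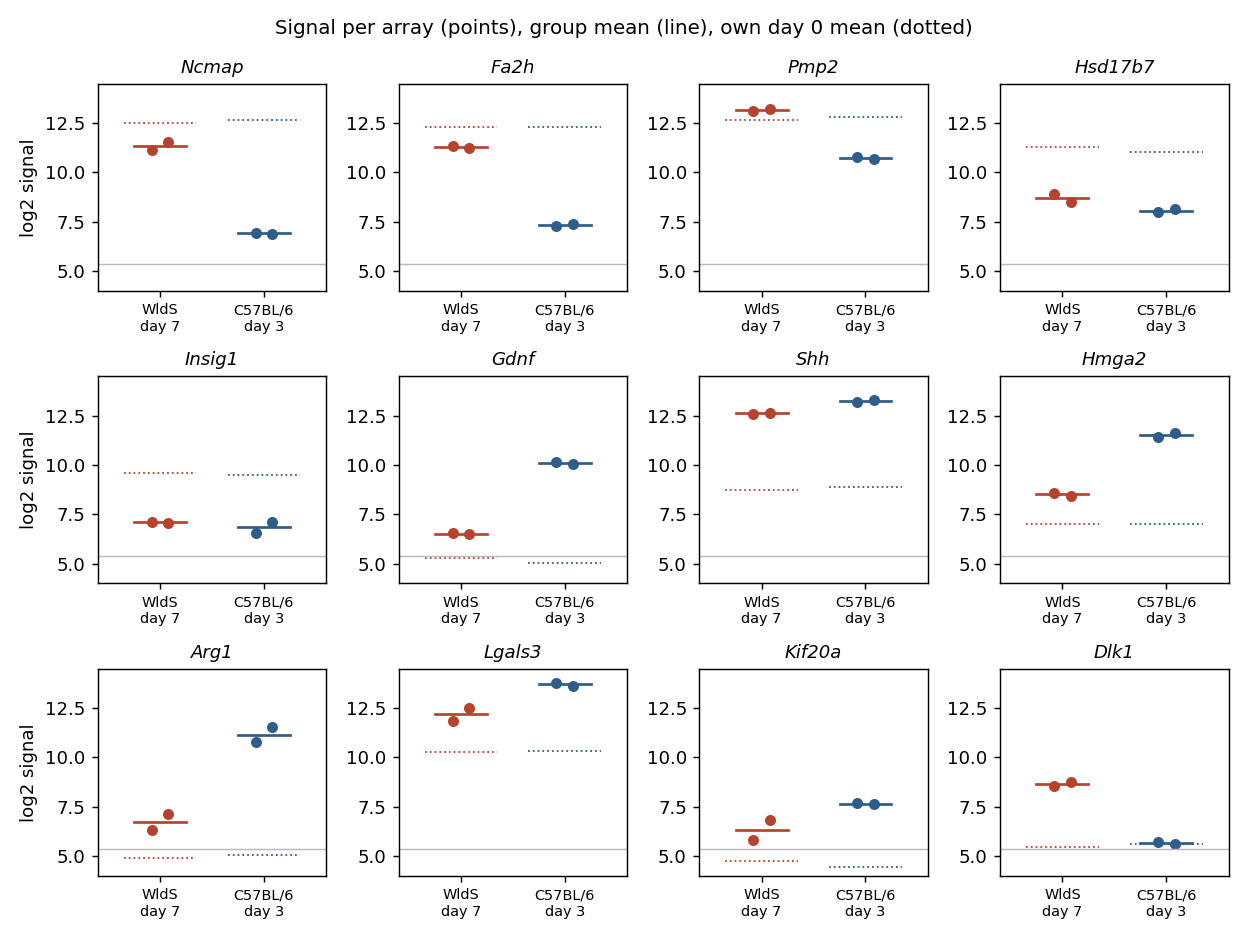
Log2 signal of 12 genes on each array, WldS day 7 (red) left of C57BL/6 day 3 (blue). Solid lines are group means of 2 pools, dotted lines are the uninjured mean of the same strain, and the grey line is the dimness limit at 5.37. Ncmap, Fa2h, Pmp2 and Dlk1 are higher in WldS day 7, Gdnf, Hmga2, Arg1, Lgals3 and Kif20a are lower, and Insig1 lies close.

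Cholesterol synthesis had fallen to about the same depth in both groups. Myelin holds much cholesterol, made in the nerve through a chain of enzymes under one sterol-sensing control. The median change from the own day 0 was -1.71 in WldS day 7 and -1.95 in C57BL/6 day 3, and 17 of 20 genes tested in WldS and 18 of 20 in C57BL/6 were called lower than at day 0. The median difference between the groups was 0.15, with 4 of 20 genes higher and none lower in WldS day 7. Of all genes, 9.42% were higher and 8.72% lower. The interval lay within 2-fold for 18 of 20, close to the 88.4% of all genes. Among those at least 2-fold below day 0 in both strains it did so for 14 of 16 (87.5%), against 55.1% of all such genes. Lss, which closes the sterol ring, was at 7.90 and 8.10 in WldS day 7, against 8.13 and 8.01 in C57BL/6 day 3. The groups overlapped, and its interval was -0.45 to 0.31. Insig1, a sterol sensor that holds the control in check, was at 7.10 and 7.07 against 6.57 and 7.09, with an interval of -0.17 to 0.68. Fdft1, which commits the chain to sterols, differed by 0.14 ± 0.16. The 4 called genes were Hmgcs1 (0.86 ± 0.15), Idi1 (0.85 ± 0.17), Cyp51 (0.68 ± 0.12) and Hsd17b7 (0.63 ± 0.17). Further probe sets above the dimness limit gave 1.14, 1.16, 1.24 and 0.03 for Hmgcs1. They gave 0.765 for Idi1, 0.31 for Cyp51, and 0.25 and 0.55 for Hsd17b7. Hsd17b7, a late step, was at 8.90 and 8.51 against 8.01 and 8.13, and its call was lost without replicate 1 of either group. Against C57BL/6 day 7 the list lay farther away, with a median of 0.52 and 7 of 20 genes called higher. In all, 16 of 20 genes lay nearer to C57BL/6 day 3 than to day 7. The list also lay close without a shift in time. Between the strains at day 3 the median was 0.06, with 2 genes higher and none lower in WldS. The list mean had already changed by -1.68 and -1.65 from day 0 in the WldS day 3 pools.

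Promoters of sterol genes are shown here because the genes of this list moved together and mostly lay close in the 2 groups compared, although Hsd17b7 was called higher in WldS day 7. Beside them are those of mitotic genes, which moved together and lay farther apart. The letters run from 250 bases before the start of the transcript up to it, 5' to 3' on the gene's strand, from RefSeq for the build GRCm38.p6. Capitals mark CCAAT or its reverse complement ATTGG, the CCAAT box. Hsd17b7 lies at chr1:169969206-169969455 (minus strand), Insig1 at chr5:28071162-28071411 (plus strand), Lss at chr10:76531355-76531604 (plus strand), Ube2c at chr2:164769679-164769928 (plus strand) and Ccnb2 at chr9:70421555-70421804 (minus strand).
Hsd17b7: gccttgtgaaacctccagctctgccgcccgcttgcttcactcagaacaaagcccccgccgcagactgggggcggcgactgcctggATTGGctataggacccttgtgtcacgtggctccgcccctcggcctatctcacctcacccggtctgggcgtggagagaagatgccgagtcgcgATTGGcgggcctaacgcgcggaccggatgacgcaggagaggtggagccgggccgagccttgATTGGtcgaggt
Insig1: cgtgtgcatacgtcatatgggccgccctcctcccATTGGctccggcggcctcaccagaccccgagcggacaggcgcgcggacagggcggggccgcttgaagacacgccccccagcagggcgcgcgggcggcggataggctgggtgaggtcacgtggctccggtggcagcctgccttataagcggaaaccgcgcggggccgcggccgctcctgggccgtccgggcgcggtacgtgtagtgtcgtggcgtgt
Lss: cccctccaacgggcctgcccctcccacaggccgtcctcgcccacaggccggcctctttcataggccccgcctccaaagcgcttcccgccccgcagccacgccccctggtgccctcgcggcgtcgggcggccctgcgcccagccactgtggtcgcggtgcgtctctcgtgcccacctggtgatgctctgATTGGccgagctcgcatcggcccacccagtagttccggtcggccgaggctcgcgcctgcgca
Ube2c: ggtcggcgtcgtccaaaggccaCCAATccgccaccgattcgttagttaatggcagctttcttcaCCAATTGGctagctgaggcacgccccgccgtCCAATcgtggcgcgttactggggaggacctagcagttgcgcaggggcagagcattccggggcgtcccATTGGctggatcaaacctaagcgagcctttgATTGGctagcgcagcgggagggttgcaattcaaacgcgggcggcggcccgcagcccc
Ccnb2: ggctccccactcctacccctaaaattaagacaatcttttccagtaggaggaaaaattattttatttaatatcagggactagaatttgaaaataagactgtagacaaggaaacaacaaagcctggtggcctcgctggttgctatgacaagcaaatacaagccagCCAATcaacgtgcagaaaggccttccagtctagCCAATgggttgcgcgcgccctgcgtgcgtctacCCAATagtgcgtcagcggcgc
In this window the CCAAT letters, searched on both strands, occurred in 16 of the 16 sterol genes with a promoter in the table and in 18 of 26 mitotic genes. By promoter that was 84.2% of 19 and 71.4% of 28, against 33.8% of all 32851 promoters. Of the 23 factors of axon guidance with a promoter, 7 held it. The letters were not particular to these lists, since they also occurred in 83.3% of promoters of endoplasmic reticulum stress genes and 57.7% of those of S phase genes. The letters TTTGAA, known from promoters of cell cycle genes, occurred in 1 of 16 sterol genes and 10 of 26 mitotic genes, against 16% of all promoters. The letters TCACNCCAC, a sterol element, occurred in 1 of 16 sterol genes and in no mitotic gene, against 1.05% of all promoters. CCAAT shared bases with TTTGAA in 40 promoters and with TCACNCCAC in 2. A match is a run of letters and not a shown site of binding, and these letters were not tested against the differences.

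**Figure D5:**
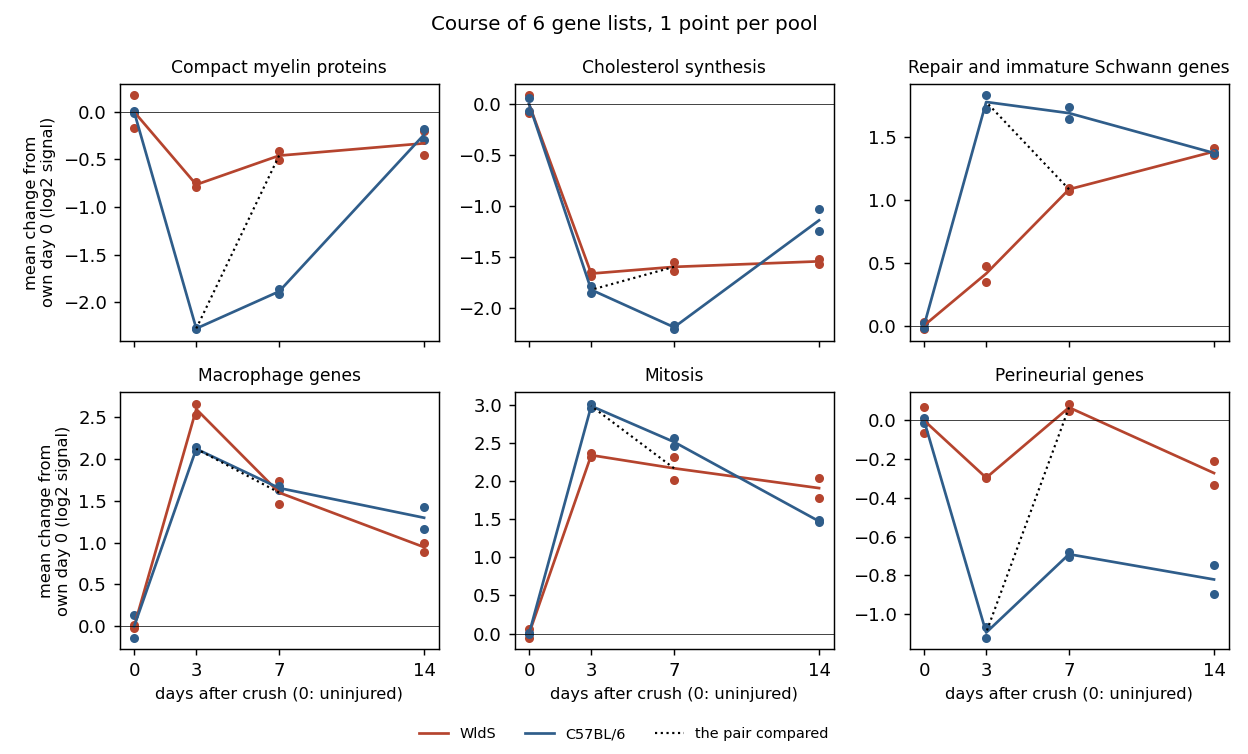
Mean change of 6 gene lists from the own uninjured nerve by day after crush, in log2 signal, with a point for each pool and lines through the means. WldS is red and C57BL/6 is blue, and the dotted line joins the pair compared, WldS day 7 and C57BL/6 day 3 (y axes differ). The dotted line is nearly flat for cholesterol synthesis (-1.64 and -1.55 in WldS day 7, against -1.86 and -1.79 in C57BL/6 day 3) and steep for compact myelin (-0.51 and -0.41, against -2.27 and -2.28).

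Some repair genes of Schwann cells matched, but a lower share than of all genes. Of 21 repair and immature Schwann cell genes tested, 12 were lower and 2 were higher in WldS day 7 nerve, with a median of -0.60. The interval lay within 2-fold for 11, against 88.4% of all genes. Of the 9 that changed at least 2-fold from day 0 in the same direction in both strains, it did so for 3 (33.3%). Of all such genes it did so for 55.1%. Gdnf, a survival factor for motor neurons made by repair cells, was at 6.55 and 6.48 in WldS day 7, against 10.15 and 10.06 in C57BL/6 day 3. It was 12-fold lower (log2 -3.59 ± 0.17, adjusted p = 1.01e-08), and its uninjured means, 5.28 in WldS and 5.01 in C57BL/6, were dim. Clcf1, a ligand of the ciliary neurotrophic factor receptor, was at 7.28 and 7.57 against 10.37 and 10.27 (-2.90 ± 0.16). Fgf5 differed by -2.73 ± 0.15 and the epidermal growth factor family ligand Btc by -2.24 ± 0.20. The stress factor Atf3 was at 8.90 and 8.91 against 10.93 and 10.92 (-2.02 ± 0.12), and Sox2, which marks Schwann cells before they mature, at 8.70 and 8.86 against 9.91 and 10.28 (-1.32 ± 0.12). For each of these 6 genes both WldS pools lay below both C57BL/6 pools, which with 2 pools a group held in either direction for 54.7% of all genes. Ngfr, the low-affinity neurotrophin receptor, and Jun, the factor that drives the repair state, were also lower, with differences of -1.71 ± 0.27 and -0.47 ± 0.12, and were named after their values were seen. L1cam, an adhesion molecule of unmyelinated Schwann cells, differed by 0.13 ± 0.14 and Tnc by -0.35 ± 0.21, both with intervals inside 2-fold. The 2 higher genes, Id2 and Cdh2, differed by 1.01 and 0.42.

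These repair genes did not share 1 course in WldS nerve. Against C57BL/6 day 7, the same WldS arrays had Gdnf at -0.76 and Clcf1 at -0.13, while Fgf5 was at -2.29, Btc at -2.21 and Sox2 at -1.94 on the log2 scale. In uninjured WldS nerve Btc was at 6.24, and it had risen by 1.72 by day 7, whereas it had risen by 4.03 in C57BL/6 by day 3. Of 23 growth factor ligands tested, 8 were lower and 5 higher, with a median of 0.05. The higher ones were Igf2 (1.04 ± 0.16), Tgfb3, Igf1, Pdgfb and Tgfb2. Without C57BL/6 day 3 replicate 1 this count of higher ligands was 3.

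Genes of growth and imprinting formed a further group that was higher in WldS day 7. Imprinted genes are read from 1 parental copy, and several of them are active in growing tissue. Of 11 tested, 8 were higher and 1 was lower, with a median of 0.81. Dlk1, a Notch-like membrane protein, was at 8.54 and 8.74 in WldS day 7, against 5.71 and 5.62 in C57BL/6 day 3 (7.87-fold, log2 2.98 ± 0.20, adjusted p = 2.74e-07). It had risen by 3.16 from day 0 in WldS, and its change in C57BL/6, 0.06, was not called. Mest, a hydrolase-like protein, was at 10.99 and 11.40 against 9.33 and 9.57, and Cdkn1c, an inhibitor of cell division, at 10.36 and 10.39 against 8.73 and 8.53. Igf2, a growth factor, was at 10.08 and 10.47 against 9.34 and 9.12. All 4 lay within 0.53 of the C57BL/6 day 7 mean, and over the list the median against C57BL/6 day 7 was 0.11 with no gene called higher and 1 lower. The 1 gene lower than in C57BL/6 day 3 was Hmga2, a chromatin protein of fetal growth, at 8.58 and 8.45 against 11.43 and 11.61 (-3.00 ± 0.12, adjusted p = 2.20e-09).

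Genes of cell division had risen in both groups and were lower in WldS day 7. All 31 mitotic genes tested were higher than at day 0 in both strains, with medians of 2.06 in WldS day 7 and 2.96 in C57BL/6 day 3. Between the groups 28 were lower and none was higher in WldS day 7, with a median of -0.77. Of the 29 that rose at least 2-fold in both strains, 7 had an interval within 2-fold (24.1%), against 55.1% of all such genes. The motor protein Kif20a was at 5.81 and 6.84 in WldS day 7, against 7.67 and 7.64 in C57BL/6 day 3 (-1.33 ± 0.26). Ube2c, which marks cyclins for breakdown, was at 7.58 and 7.98 against 9.15 and 8.85 (-1.21 ± 0.17). Ccnb2, cyclin B2, was at 7.55 and 8.26 against 8.90 and 8.90 (-0.99 ± 0.21), and Birc5, survivin, at 7.72 and 8.28 against 9.15 and 8.98. WldS day 7 replicate 1 was the lower pool for each of these 4. The mean over the list was 8.11 and 8.41 in the WldS day 7 pools, against 9.04 and 9.10 in the C57BL/6 day 3 pools, and without WldS day 7 replicate 1 the count of lower genes was 18 and Ccnb2 was not called. A second probe set of Tpx2 and of Cenpf did not share the fall, with differences of 0.03 for each.

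Genes of DNA replication followed, with 20 of 27 lower, none higher and a median of -0.55. Cdt1, which licenses replication origins, was at 9.02 and 9.34 in WldS day 7, against 10.40 and 10.16 in C57BL/6 day 3 (-1.10 ± 0.17). Mcm5, part of the replicative helicase, differed by -0.88 ± 0.17 and Rrm2, which makes DNA building blocks, by -0.78 ± 0.14. Without WldS day 7 replicate 1 the count of lower genes was 5, and without C57BL/6 day 3 replicate 1 it was 8. No member of this list lay nearer to C57BL/6 day 3 than to day 7, and the median against day 7 was -0.06. Of 12 D cyclins and cell cycle inhibitors, 3 were higher and 1 lower in WldS day 7, with a median of 0.15. The higher ones were inhibitors, Cdkn1c at 1.75 ± 0.11, Cdkn1a at 0.95 ± 0.13 and Cdkn1b at 0.88 ± 0.14, whereas the inhibitor Cdkn2d differed by -0.55, a call lost without replicate 1 of either group. Ccnd1, a cyclin of the entry into division, was at 12.06 and 11.55 against 11.56 and 11.86, with overlapping groups and an interval of -0.25 to 0.45. Its difference was 0.10 on this probe set, and -0.49 and -0.10 on others above the dimness limit.

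Macrophage genes had risen in both groups, and many of them were lower in WldS day 7. Of 26 tested, 25 in each strain were higher than at day 0, with medians of 1.58 in WldS day 7 and 2.12 in C57BL/6 day 3. Between the groups 14 were lower and none was higher, with a median of -0.69, and 12 had an interval within 2-fold. Itgam (CD11b), an adhesion receptor of monocytes, was at 6.26 and 6.19 in WldS day 7, against 8.07 and 8.53 in C57BL/6 day 3 (-2.08 ± 0.19, adjusted p = 5.54e-06). The antibody receptor Fcgr1 was at 8.11 and 8.27 against 9.89 and 9.81 (-1.66 ± 0.20). Ms4a7, a membrane protein of macrophages, was at 10.14 and 10.45 against 10.31 and 10.04, with an interval of -0.26 to 0.50, and Clec4n, a pattern receptor, differed by -0.23 ± 0.23. The mean over the list was 9.78 and 10.05 in the WldS day 7 pools, against 10.57 and 10.62 in the C57BL/6 day 3 pools. Without WldS day 7 replicate 1 the count of lower genes was 5, without C57BL/6 day 3 replicate 1 it was 8, and without C57BL/6 day 3 replicate 2 it was 9. On the same day (day 3) 2 of these genes were higher and none was lower in WldS than in C57BL/6. Of all genes, 9.44% were called there, 4.82% higher and 4.62% lower. The mean change of the list from day 0 was 2.66 and 2.53 in the WldS day 3 pools. It was 1.46 and 1.73 in the WldS day 7 pools, and 2.09 and 2.14 in the C57BL/6 day 3 pools. The WldS level thus stood higher at day 3 than at day 7.

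Genes of macrophages in an alternative state split in direction. Arg1, arginase, was at 6.31 and 7.13 in WldS day 7, against 10.78 and 11.54 in C57BL/6 day 3 (21.7-fold lower, log2 -4.44 ± 0.39, adjusted p = 3.34e-06). Chil3, a chitinase-like protein, was at 5.68 and 5.73 against 9.55 and 9.49 (-3.81 ± 0.20). Retnla, another marker of that state, was at 12.73 and 12.77 against 11.58 and 11.81 (1.05 ± 0.11), and the lectin Mgl2 differed by 0.86 ± 0.15. Mgl2 had fallen from day 0 in C57BL/6 by 1.87. Of 14 genes tested 6 were lower and 2 higher, and without C57BL/6 day 3 replicate 1 the count of lower genes was 3. Among 17 genes of lipid-laden macrophages, 5 were lower and 4 higher, with a median of -0.07. Lgals3, galectin 3, was at 11.85 and 12.52 against 13.78 and 13.62 (-1.52 ± 0.17), while Ctsk, cathepsin K, differed by 1.14 ± 0.15. The higher genes numbered 2 without WldS day 7 replicate 1 and 1 without C57BL/6 day 3 replicate 1.

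Lysosome genes, which digest engulfed debris, were called lower in a share near that of all genes. The interval lay within 2-fold for 20 of 25, a lower share than the 88.4% of all genes. The median change from day 0 was 0.90 in WldS day 7 and 0.78 in C57BL/6 day 3. The median difference between the groups was -0.19, with 3 of 25 lower and none higher, against 8.72% lower and 9.42% higher of all genes. Ctsd, cathepsin D, was at 12.90 and 13.01 in WldS day 7, against 13.09 and 13.29 in C57BL/6 day 3, and Ctss, cathepsin S, at 13.22 and 13.35 against 13.37 and 13.55. Their intervals were -0.59 to 0.13 and -0.49 to 0.13. The 3 lower genes were Gla (-1.49 ± 0.17), Lipa (-1.07 ± 0.13) and Atp6v1b2 (-0.86 ± 0.18), and without WldS day 7 replicate 2 the count was 6. Atp6v1b2 lost its call without C57BL/6 day 3 replicate 2. Of the 10 genes that rose at least 2-fold in both strains, 8 had an interval within 2-fold, and 19 of 25 lay nearer to C57BL/6 day 3 than to day 7. Of 13 genes of antigen presentation on MHC class II, 1 was called, Ifi30 (-1.32 ± 0.19), and 12 were within 2-fold, a share near the 88.4% of all genes. Cd74, the invariant chain, was at 11.99 and 12.47 against 12.44 and 12.34.

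Acute inflammatory signals were lower in WldS day 7. Of 31 cytokines and chemokines, 11 were lower and none was higher, with a median of -0.33, and 21 had an interval within 2-fold. Ccl2, which draws monocytes, was at 8.72 and 9.15 in WldS day 7, against 10.85 and 10.35 in C57BL/6 day 3 (-1.67 ± 0.18, adjusted p = 2.77e-05). Il1b, interleukin 1 beta, was at 5.84 and 5.76 against 6.80 and 7.08 (-1.13 ± 0.15). The largest fall in this list was that of Clcf1, given above with the repair genes. Saa3 and Ppbp are not in the list and are given because they stood among the 15 genes with the largest fall. Saa3, an acute phase protein, was at 7.21 and 7.74 against 11.59 and 11.53 (17-fold lower, log2 -4.08 ± 0.36). Ppbp, a platelet and neutrophil chemokine, differed by -2.71 ± 0.43. Ccl8 was at 10.22 and 10.67 against 10.84 and 9.97, with overlapping groups. Markers of neutrophils were low in both groups. Of 11 tested 4 were lower, S100a8, S100a9, Lcn2 and Csf3r, and S100a8 was at 5.36 and 5.10 against 6.93 and 7.53 (-2.00 ± 0.30, a lower bound). The granule genes Camp, Elane and Ngp lay between 5.27 and 6.13 on all 4 arrays. The part of these cells in the cytokine result was not tested.

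Interferon-stimulated genes lay between the days of C57BL/6. Of 28 tested, 7 were lower and none higher in WldS day 7 than in C57BL/6 day 3, with a median of -0.34. Against C57BL/6 day 7, 8 were higher and none lower, with a median of 0.49. Mx1, an antiviral GTPase, was at 5.68 and 5.77 in WldS day 7, against 6.71 and 7.07 in C57BL/6 day 3 (-1.17 ± 0.15). Rtp4 differed by -0.24 ± 0.21, with an interval within 2-fold. The count of lower genes was 4 without WldS day 7 replicate 1. At day 3 of both strains 22 of the 28 were higher in WldS. Immediate early genes were lower too, 8 of 18 with 1 higher and a median of -0.43, among them Fosl1 (-2.20 ± 0.24, and -0.33 on another probe set) and Fos (-0.90 ± 0.11). Fos was at 10.89 and 10.89 against 11.79 and 11.78. Without C57BL/6 day 3 replicate 2 the count of lower genes was 5, and the higher gene was Nr4a1 (0.63).

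Complement genes went in both directions. Of 15 tested 5 were higher and 4 lower. C1s1, a protease of the first complex, was at 12.59 and 12.38 in WldS day 7, against 11.16 and 11.54 in C57BL/6 day 3 (1.14 ± 0.20). C2 differed by 1.07 ± 0.12 and Cd55, which restrains complement on cells, by 1.22 ± 0.18. The lower ones were Cfp (-1.18 ± 0.20), C5ar1 (-0.90 ± 0.16), C3ar1 and Itgb2, the last 3 being receptors of myeloid cells. A second probe set of Cfp did not share the fall (0.13). C1qa was at 11.27 and 11.92 against 12.08 and 11.83, with an interval of -0.84 to 0.13. Without C57BL/6 day 3 replicate 2 the count of lower genes was 2.

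Matrix and resting fibroblast genes were higher in WldS day 7. Of 19 genes of resting nerve fibroblasts, 14 were higher and none was lower, with a median of 0.65. Smoc2, a matrix protein, was at 12.44 and 12.10 in WldS day 7, against 10.35 and 10.90 in C57BL/6 day 3 (1.64 ± 0.27), and Abca8a, a lipid transporter, at 12.57 and 12.51 against 10.97 and 10.96 (1.58 ± 0.14). Pi16, a marker of adventitial fibroblasts, was at 10.71 and 10.81 against 9.70 and 9.57. In C57BL/6 day 3, 13 of the 19 had fallen from day 0, with a median of -0.66, and in WldS day 7 the median was 0.15. The count of higher genes was 9 without WldS day 7 replicate 1 and 8 without C57BL/6 day 3 replicate 1. Collagens went the same way, with 10 of 19 higher and none lower and a median of 0.48. Col14a1, a fibril-bound collagen, was at 12.56 and 12.37 against 11.43 and 11.65 (0.92 ± 0.17), and Col8a2 differed by 1.76 ± 0.19, a lower bound. Without WldS day 7 replicate 1 the count was 5, and without C57BL/6 day 3 replicate 1 it was 6. Of 26 matrix glycoproteins 11 were higher and none lower, led by the small proteoglycan Fmod (1.44 ± 0.15), Mfap5 (1.33 ± 0.18) and Comp (1.09 ± 0.13), while fibronectin (Fn1) was at 13.65 and 13.53 against 13.41 and 13.54. This count was 6 without WldS day 7 replicate 2 or C57BL/6 day 3 replicate 2, and 5 without C57BL/6 day 3 replicate 1.

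Perineurial genes, from the cell sleeve around nerve bundles, were mostly higher in WldS day 7. Of 12 tested 10 were higher and none lower, with a median of 0.84, and their medians from day 0 were -0.15 in WldS day 7 and -1.10 in C57BL/6 day 3. Against day 0, 3 were called higher and 3 lower in WldS day 7, and 1 higher and 8 lower in C57BL/6 day 3. Between the strains at day 3, 8 were higher and 1 lower in WldS, with a median of 0.69. Cdh1, E-cadherin, was at 9.97 and 9.98 in WldS day 7, against 8.39 and 8.11 in C57BL/6 day 3 (1.72 ± 0.12, adjusted p = 5.56e-07). The tight junction gene Cldn1 was at 11.42 and 11.30 against 9.55 and 9.98 (1.59 ± 0.26). Itgb4, a laminin receptor, differed by 1.25 ± 0.26. E-cadherin is also made by myelinating Schwann cells, and Dlk1, counted above, belongs to this list too. Genes listed as secreted antagonists of Wnt signalling were higher in 6 of 12, none lower. Nkd1, one of the 6, is not a secreted protein and differed by 0.63. Its other probe sets above the dimness limit gave -0.08, -0.05 and -0.16, and its call was lost with the mean of all probe sets. Sfrp2 was at 11.73 and 11.29 against 9.45 and 9.66 (1.95 ± 0.25), having risen by 2.46 in WldS, with a change of -0.59 in C57BL/6 that was not called, and Dkk2 differed by 1.29 ± 0.19. Connective tissue was removed by hand from all nerves, and its part in these levels was not tested.

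Proteases of the matrix moved in both directions, 6 of 22 higher and 5 lower. Mmp12, macrophage elastase, was at 8.62 and 9.32 in WldS day 7, against 5.93 and 7.88 in C57BL/6 day 3 (2.06 ± 0.42), with C57BL/6 pools that differed by more than most. Mmp9, gelatinase B, was at 7.35 and 7.25 against 9.25 and 8.77 (-1.71 ± 0.14). Timp1, an inhibitor of these enzymes, was at 10.70 and 11.18 against 12.86 and 12.64 (-1.81 ± 0.15), and had risen by 3.26 in WldS and by 5.09 in C57BL/6. Mmp2, gelatinase A, differed by 0.87 ± 0.18. The count of lower genes was 3 without C57BL/6 day 3 replicate 2.

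Other cell types were described through their markers. Mast cell genes were higher in WldS day 7, 6 of 8, with a median of 0.76. The protease Cpa3 was at 9.07 and 9.57 in WldS day 7, against 8.12 and 7.26 in C57BL/6 day 3 (1.63 ± 0.32), and Cma1, mast cell chymase, differed by 1.47 ± 0.21. Their medians from day 0 were -0.04 in WldS day 7 and -0.64 in C57BL/6 day 3, and without C57BL/6 day 3 replicate 1 the count of higher genes was 3. Of 12 pericyte and smooth muscle genes 5 were higher and none lower, with Kcnj8 at 1.01 ± 0.17 and Rgs5 at 0.99 ± 0.14. That count was 3 without WldS day 7 replicate 1 or C57BL/6 day 3 replicate 2. Of 18 endothelial genes 5 were higher, led by the lipid transporter of the nerve and brain barrier Mfsd2a (7.80 and 8.45 against 6.09 and 5.93, 2.11 ± 0.17), and 1 was lower, Eng. The count of higher ones was 3 without WldS day 7 replicate 1, 8 without WldS day 7 replicate 2 and 2 without C57BL/6 day 3 replicate 1. None of 11 adipocyte and none of 9 skeletal muscle genes was called, and 10 and 9 of them had intervals within 2-fold. Of all genes, 18.1% were called and 88.4% had such an interval. At an unadjusted p under 0.05, 4467 of all genes passed. The called T cell gene was Il7r (0.72 ± 0.22) of 9, and the called B and plasma cell gene was Jchain (1.99 ± 0.50) of 11. Jchain was at 7.23 and 9.09 against 6.98 and 5.37, and its uninjured means were 8.84 in WldS and 5.68 in C57BL/6. The Il7r call was lost without either WldS day 7 pool or C57BL/6 day 3 replicate 1, and the Jchain call without replicate 2 of either group.

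Lists of housekeeping genes also lay below 0. All 28 genes of oxidative phosphorylation had intervals within 2-fold and none was called, and their median was -0.20. With WldS day 7 replicate 2 left out, 4 of them were called lower. Their mean was 11.10 and 11.41 in the WldS day 7 pools, against 11.50 and 11.33 in the C57BL/6 day 3 pools. Of 23 proteasome genes 6 were lower, with a median of -0.41, about as far from 0 as those of the cytokine, interferon and immediate early lists (-0.33, -0.34 and -0.43), and list means of 10.72 and 11.03 against 11.33 and 11.23. The count was 2 without replicate 1 of either group and 15 without WldS day 7 replicate 2. WldS day 7 replicate 1 was thus the lower pool for the lists of mitosis, S phase, macrophages, oxidative phosphorylation and proteasome. Its part in those results was not tested beyond the counts without it.

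Some differences between the strains were present before injury, when 33 genes were called (0.227%, with 0.0825% higher and 0.144% lower in WldS). Nmnat1, part of the WldS fusion gene, was at 8.50 and 8.75 in WldS day 7, against 6.26 and 5.94 in C57BL/6 day 3 (2.52 ± 0.16, adjusted p = 1.17e-07). Its uninjured means were 9.19 in WldS and 6.17 in C57BL/6, and the change from day 0 did not pass between strains (-0.49, adjusted p = 0.157). The same held for Mmrn1 (2.46 ± 0.51), Mageb16 (2.40 ± 0.20, a lower bound) and Rbp7 (0.68 ± 0.16), whose differences between changes were 0.63, -0.59 and 0.01. Rbp7 lost its call without WldS day 7 replicate 2 or C57BL/6 day 3 replicate 2. Pttg1, securin, was the reverse case. It was at 12.09 and 12.15 against 12.42 and 12.36, with an interval of -0.51 to -0.03, although its uninjured means were 10.34 in WldS and 13.11 in C57BL/6. Across all genes, the difference between the changes from day 0 was called for 1911 (13.1%), of which 1254 were higher (8.62%) and 657 lower (4.52%) in WldS. Of the 2639 genes called between the groups, 1506 were called in the same direction there. It rests on 4 further arrays, and without WldS day 0 replicate 1 the count was 1266, without WldS day 0 replicate 2 it was 3186, without C57BL/6 day 0 replicate 1 it was 1030, without WldS day 7 replicate 1 it was 1240, and without C57BL/6 day 3 replicate 1 it was 964. Of 17 genes of NAD metabolism and axon death, 15 had intervals within 2-fold, a share near the 88.4% of all genes. Besides Nmnat1 the called ones were Nampt (0.41 ± 0.13) and Bst1, an NAD-cleaving enzyme of the cell surface. Bst1 was at 5.81 and 6.43 against 8.02 and 7.96 (-1.87 ± 0.20). The Nampt call was lost in 8 alternative settings, and without WldS day 7 replicate 2 the count of lower genes was 3.

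Genes of axons and neurons gave a mixed picture. Of 12 tested 3 were higher and 4 lower. Sncg, gamma-synuclein, differed by 1.63 ± 0.24, with WldS day 7 above C57BL/6 day 3 in every pool. For 54.7% of all genes the pools of the 2 groups did not overlap, in either direction. Prnp, the prion protein, differed by 0.98 ± 0.12. Tubb3, a tubulin of neurons, was at 6.22 and 6.74 against 8.58 and 8.14 (-1.88 ± 0.18), and Map1b, a microtubule protein of growing axons, differed by -1.33 ± 0.28, a call lost without WldS day 7 replicate 1. In C57BL/6 Tubb3 had risen by 2.37 from day 0, and in WldS by 0.68. Gap43, a growth cone protein that repair Schwann cells also make, differed by -0.77 ± 0.25 (adjusted p = 0.0468), a call lost in 9 of the alternative settings. The count of lower genes was 1 without WldS day 7 replicate 1 and 2 without C57BL/6 day 3 replicate 1.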

How the data were processed

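The series was measured on Affymetrix mouse whole-genome arrays, and the table the authors deposited holds 1 log2 signal per probe set and array, normalized between arrays. Per the submitters' processing notes, GCOS 1.4, RMA, limma and Partek were used, and which step each served is not given in the sources used here. Array medians lay between 6.42 and 6.49. Of 45101 probe sets, 64 controls were left out, and probe sets with 1 gene symbol (34945) were kept, the one with the highest mean standing for its gene. Genes under the 30th percentile of probe set means (5.37) in mean signal were left out, leaving 14545 of 18193. limma 3.58.1 in R 4.3.3 fitted the 8 group means to all 16 arrays, with 8 residual and 5.82 prior degrees of freedom, two-sided tests and Benjamini-Hochberg adjustment over all tested genes. The fit was tested on simulated data. Promoters came from RefSeq (GRCm38.p6), with 250 bases before the start searched.

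Genes named are the 15 largest calls in each direction whose arrays do not overlap, the 10 largest shared responses in each direction with an interval within 2-fold, up to 5 called and up to 3 matching members of each of 44 gene lists, the genes of the strain locus, and defining cell type markers. C3ar1, Cdh2, Eng, Gjb1, Id2, Igf1, Itgb2, Jun, Ngfr, Nr4a1, Pdgfb, Tgfb2 and Tgfb3 were named after their values were seen. The members and lists were chosen with earlier results of these data known. Alternatives were other normalizations, filters, probe set rules and variance models, the compared arrays alone, a replicate block, and each pool left out. Replicate numbers came from the array titles. Deviations from the group means correlated at -0.41 between same-numbered WldS day 7 and C57BL/6 day 3 pools, and from -0.58 to 0.19 over 28 group pairs, so the numbers were not taken as pairs. The number of arrays limits the precision.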

Additional observations from a re-analysis of the deposited data

Results flagged for a closer look

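For 8 of the named genes, the change from the own uninjured nerve was called in each strain and in opposite directions, and the difference between the changes was also called by limma. Pmp2 stood 0.50 above day 0 in WldS day 7 and changed by -2.07 in C57BL/6 day 3, a difference between changes of 2.58. Pttg1 changed by 1.78 in WldS and by -0.72 in C57BL/6, a difference of 2.50, and its uninjured levels were already apart. Otop1 had a difference of 2.09 (0.80 in WldS, -1.29 in C57BL/6), Dkk2 of 1.82 (1.08, -0.74) and C1s1 of 1.71 (1.14, -0.57). Kcnj8, a potassium channel of pericytes, had a difference of 1.34 (0.83, -0.51) and Edil3 of 1.12 (0.59, -0.53). Mmp9 went the other way, with -1.19 (-0.54 in WldS, 0.64 in C57BL/6). Across all genes, 88 were called against day 0 in opposite directions. What sets these genes apart was not tested.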

How the results depend on the processing

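In all, 20 settings were tried. The fits without a day 0 pool and the 1.5-fold limit were not applied to single named genes. In the other settings, 143 of the 214 called genes among the 318 named never lost their call, and 71 lost it under at least 1. A gene that a setting's filter left out was not counted as losing its call. The medians of 10 lists changed sign under some setting, the largest of these being 0.183 in size. With only the compared arrays in the fit, 1289 genes were called between WldS day 7 and C57BL/6 day 3 and 809 in the difference between changes, where fewer arrays estimate the spread. With a limit of 1.5-fold in place of 2-fold, 8541 genes had an interval inside it. Leaving out 1 pool at a time gave 1405 to 2973 calls between the groups, 964 to 3186 in the difference between changes, 646 to 1082 against C57BL/6 day 7 and 1186 to 2202 against C57BL/6 day 14. Without both arrays of high 3'/5' index the main count was 3288. Crispld1 turned from 0.41 to -0.0114 with the mean of all its probe sets (adjusted p = 0.961). Of the called genes 51.9% were higher in WldS day 7, 46.5% with the mean of all probe sets, 58.4% with only the compared arrays, and 62.3% without WldS day 7 replicate 1. With the replicate number as a block, 2424 genes were called between the groups and 1628 in the difference between changes. A crossed block, added after seeing the data, gave 2471.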

Other observations

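Ion channel genes were higher in 8 of 17 and lower in 2, with a median difference of 0.57, and without C57BL/6 day 3 replicate 1 the higher ones numbered 5. Of 26 guidance and adhesion genes 7 were higher and 3 lower, the lower count lying near the share of all genes. Over all genes 9.42% were higher and 8.72% lower. Heme and iron genes were lower in 5 of 13 and higher in 1, glycolysis genes lower in 5 of 18 and higher in 3, and the glycolysis count of lower genes was 1 without WldS day 7 replicate 1 and 2 without either C57BL/6 day 3 pool. Of 19 endoplasmic reticulum stress genes, 17 were inside 2-fold, a share near the 88.4% of all genes, and 2 were lower, near the background of 8.72%, Sdf2l1 (-1.08) and Asns (-0.77).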
